A study of Bos taurus with 2 samples.

Results

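The proteoglycan genes described here are DCN, LUM, BGN, FMOD, OGN, ASPN and VCAN, 7 of the 21867 genes in the deposited feature list, chosen by name. All 7 had UMIs. The cells were cultured satellite cells from the skeletal muscle of 1 male Holstein calf aged 2 weeks, grown for a week in DMEM with 10% fetal bovine serum. They were sequenced in 2 single-cell libraries, called replicates 1 and 2 here, on the 10x Genomics platform, which captures RNA by its 3′ end and marks every molecule by its cell and by a unique molecular identifier (UMI). Both libraries came from the same cells of the 1 animal, so p-values measure only the spread between library preparations, not between animals. There was no treatment and no second group, and all comparisons are between the 15 clusters in which the cells were deposited.

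Proteoglycans are core proteins that carry glycosaminoglycan chains and fill the extracellular matrix around muscle fibers and their connective tissue. The small leucine-rich members (decorin, lumican, biglycan, fibromodulin, osteoglycin and asporin) bind fibrillar collagens and shape their fibrils, and several also bind growth factors such as TGF-β and myostatin. Versican is of another kind, a large chondroitin sulfate proteoglycan that binds hyaluronan and gives a loose matrix that ADAMTS proteases cleave. In muscle these genes are best known from fibroblasts and fibro-adipogenic progenitors (FAP), the PDGFRA-positive cells between the fibers, although myoblasts in culture also secrete decorin and other members.

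Replicate 1 held 9939 cells with a median of 14626 UMIs, and replicate 2 held 9157 cells with a median of 15206 UMIs. The 2 libraries shared 27 cell barcodes. By the names in use for these clusters, 8, 5 and 4 are satellite cells, 1 and 2 are myoblasts, 3 and 12 are differentiating myocytes, and 7 and 9 are FAP. The other 6 clusters have no identity. PAX7, which defines satellite cells, had 176 UMIs in all cells and at most 0.0119 UMIs per 10000 in any cluster, while MYOG, a factor of myogenic differentiation, stood at 18.6 ± 0.779 (SD, n = 2) in cluster 12. PDGFRA was highest in clusters 9 (1.58 ± 0.0744) and 7 (1.48 ± 0.362). The summed level of 6 fibroblast and FAP markers (PDGFRA, COL1A1, COL1A2, COL3A1, FBN1 and LOX) did not follow PDGFRA in cluster 9. This sum comes mostly from the collagen genes and does not show the course of FBN1 or LOX. It was 606 in cluster 7 and 255 in cluster 8, but 77.3 in cluster 9. Only clusters 12 (66.8) and 14 (62.9) were lower. Of the marker lists of other cell types, the defining genes SOX10 (glia), PTPRC (immune cells) and CDH5 (endothelium) had 0, 1 and 28 UMIs in all cells. The 4 smooth muscle markers (ACTA2, MYH11, CNN1 and TAGLN) were detected in all 15 clusters, with a summed level of 3.67 to 9.89 UMIs per 10000, and the 4 pericyte markers (NOTCH3, MCAM, RGS5 and CSPG4) summed to 3.99 in cluster 7, 1.08 in cluster 9 and 0.123 to 1.13 in the others. Their part in the results was not tested. Clusters 7, 13, 14 and 15 were shallow, with medians of 1389, 1631, 2513.5 and 647 UMIs per cell against 5398.5 to 23011 in the others.

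Levels are given as UMIs of a gene per 10000 UMIs of all genes in the same cluster and library. Since 1 end of each RNA was counted, levels describe 1 gene across clusters and do not rank genes against each other. DCN had 197365 UMIs and was detected in 90.5% of all cells, LUM had 79503 (79.7%), OGN 55595 (69.4%), VCAN 14068 (36.8%), BGN 11248 (13.6%), FMOD 10888 (32.5%) and ASPN 627 (2.28%). The genes fell into different patterns over the clusters. DCN, LUM, FMOD and OGN had their highest mean in cluster 8 and were spread over most clusters, BGN was concentrated in cluster 9 and in some cells of clusters 7 and 10, and VCAN was highest in cluster 7.

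**Figure D1:**
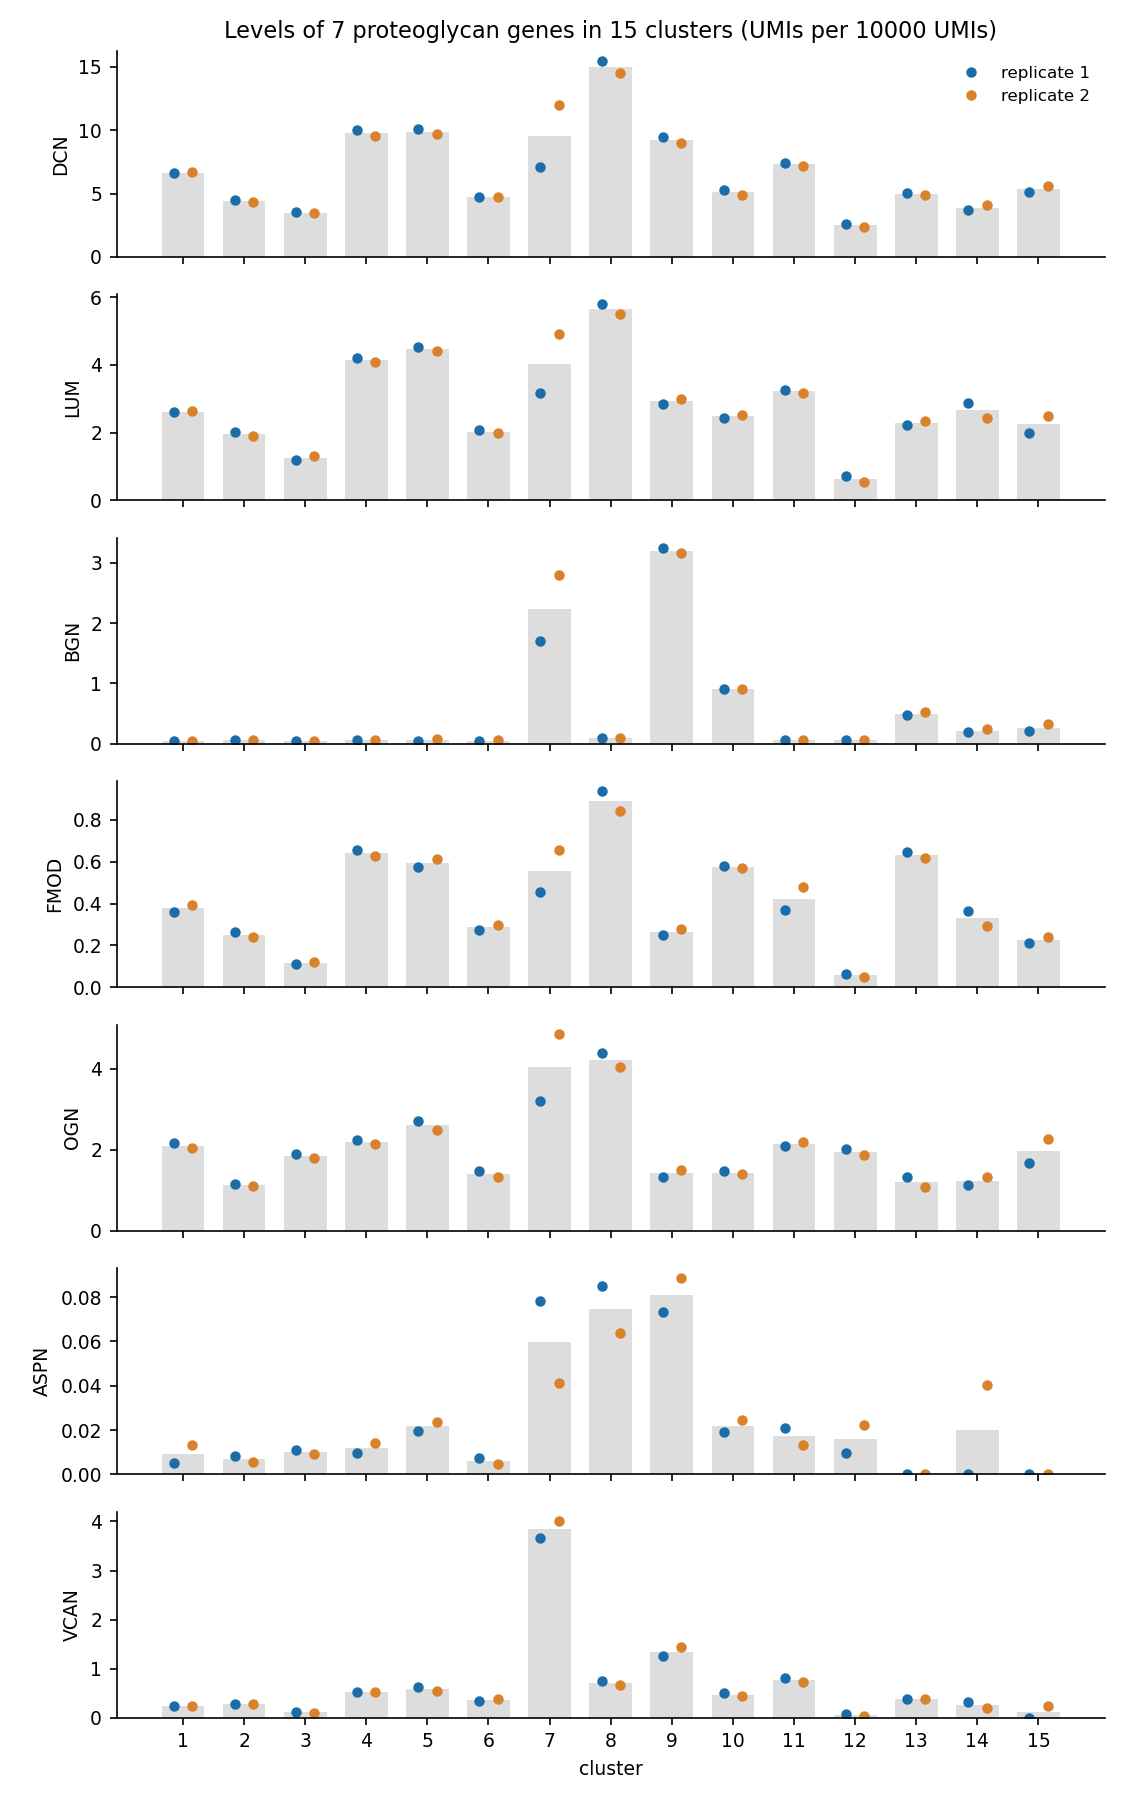
Level of each gene (UMIs per 10000 UMIs, own linear axis for each gene) in the 15 clusters. Grey bars are means of 2 libraries and dots are the libraries. DCN, LUM, FMOD and OGN have their highest mean in cluster 8 (for OGN with libraries that overlap with cluster 7), BGN in cluster 9 (3.20) and VCAN in cluster 7 (3.84). The replicates stand apart in cluster 7 for DCN, LUM, BGN, FMOD and OGN.

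Each cluster was also compared with all other cells, on UMIs summed per library (2 sums against 2), with edgeR's quasi-likelihood test and Benjamini-Hochberg adjustment over all genes tested. These p-values are not independent of the clustering, which used the same counts. Of all pairs of gene and cluster, 14.9% were called higher and 17.1% lower. DCN was called higher in 4 clusters and lower in 7, LUM in 4 and 6, FMOD in 5 and 5, OGN in 4 and 6, VCAN in 5 and 6, BGN in 3 and 9, and ASPN in 2 and 5. Clusters 2 and 6 had lower calls for all 7 genes, where 16.8% and 9.48% of all genes tested were lower. In cluster 15, the shallowest with 219359 UMIs in all, edgeR called 0 of the 7, although 3 were at an unadjusted p under 0.05, and DESeq2 called 1, DCN. The share of all genes called in this cluster alone is not given here, so these counts have no background.

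Decorin binds collagen fibrils and sequesters TGF-β and myostatin. DCN stood at 15.5 and 14.5 UMIs per 10000 in replicates 1 and 2 of cluster 8 and at 2.63 and 2.40 in cluster 12, which were the highest and lowest clusters, 5.95-fold apart. Clusters 5 (10.1 and 9.68), 4 (9.99 and 9.56) and 9 (9.47 and 9.03) followed cluster 8. Their library ranges overlapped from cluster 5 to cluster 4, and that of cluster 7 (7.13 and 12) overlapped with those of clusters 4 and 9. DCN was thus measured at a similar level in clusters 4 and 5, named satellite cells, and in cluster 9, named FAP. Lumican, which spaces collagen fibrils, lies next to DCN in the gene order and had the closest pattern to it among these genes (Pearson's r of log2 levels 0.919 over the 15 clusters, which share libraries and differ in depth). LUM stood at 5.80 and 5.52 in cluster 8 and at 0.722 and 0.548 in cluster 12.

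Fibromodulin guides collagen cross-linking. FMOD stood at 0.937 and 0.840 in cluster 8, at 0.0650 and 0.0495 in cluster 12 and at 0.110 and 0.120 in cluster 3. These groups did not overlap. Its order was less resolved than that of DCN, since 10 of the 14 neighbouring pairs of clusters had overlapping library ranges, against 5 for DCN. FMOD correlated with LUM (r = 0.909 over the same 15 clusters) but was lower in cluster 9 (0.251 and 0.279) than in clusters 10 (0.578 and 0.570) and 13 (0.646 and 0.616).

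Osteoglycin, also called mimecan, is a small member of the family named after bone, where it was found. OGN varied least, 3.71-fold from cluster 8 (4.38 and 4.03) to cluster 2 (1.15 and 1.11). The top place was not resolved, since cluster 7 (3.21 and 4.84) overlapped with cluster 8 and held the highest single library. In the myocyte cluster 12 it stood at 2.02 and 1.86, which overlapped with clusters 3 (1.90 and 1.79) and 15 (1.68 and 2.26). Asporin, which carries a run of aspartates and no chains in its usual form, was sparse. ASPN stood at 0.0732 and 0.0886 in cluster 9, at 0.0850 and 0.0638 in cluster 8 and at 0.0781 and 0.0410 in cluster 7, and these 3 clusters overlapped. Cluster 7 held only 12 ASPN UMIs. In clusters 13 and 15 there were 0 ASPN UMIs.

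Biglycan binds collagens and, when released, the receptors TLR2 and TLR4. BGN stood at 3.25 and 3.16 in cluster 9, at 1.70 and 2.79 in cluster 7 and at 0.913 and 0.910 in cluster 10. It was at 0.471 and 0.522 in cluster 13, and at most 0.322 in any library of the other 11 clusters. The lowest mean was that of cluster 3 (0.0444 and 0.0493), 68.4-fold below cluster 9. Of the 11248 BGN UMIs, 8464 (75.2%) came from the 1080 cells of cluster 9. Versican, by contrast, stood at 3.67 and 4.0 in cluster 7, at 1.26 and 1.44 in cluster 9 and at 0.805 and 0.727 in cluster 11. VCAN had its lowest mean in cluster 12, with 0.0699 and 0.0463. Cluster 15 (0 and 0.242, on 3 UMIs) overlapped with it, so the lowest place was not resolved. Across the 15 clusters BGN and VCAN had an r of 0.588, and BGN and DCN 0.233.

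The deposited average UMI counts, which the authors scaled to a common total and which carry no error, gave BGN 4.78 in cluster 9, 3.46 in cluster 7 and 1.36 in cluster 10, and VCAN 5.75 in cluster 7 and 2.00 in cluster 9. They convert to the same UMI sums as the counts used here.

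Cluster 8 had the largest number of higher calls. Compared with all other cells, 6 of the 7 genes were higher there, where 22.5% of all genes tested were called higher. DCN was higher by 1.26 on the log2 scale (SE 0.0499, adjusted p = 4.31e-05 by edgeR), LUM by 1.16 (SE 0.0436), OGN by 1.26 (SE 0.0564), FMOD by 1.38 (SE 0.0700), ASPN by 2.04 (SE 0.194) and VCAN by 0.60 (SE 0.0654). The value of VCAN depends on the weight of the other clusters. With these weighted equally it was 0.08, a value with no test. BGN went the other way, with 0.104 and 0.0957 in cluster 8 against 0.416 in all other cells (log2 fold change -2.01, SE 0.0741, adjusted p = 3.61e-05 by edgeR). The level of the other cells comes mostly from cluster 9, and cluster 8 lay above clusters 1 to 6, 11 and 12 in its BGN level.

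In cluster 9, 4 of the 7 genes were called higher (background 25.3% of all genes tested), and these were BGN, ASPN, VCAN and DCN. The log2 fold changes were 4.85 for BGN (SE 0.10, adjusted p = 1.55e-06 by edgeR, and 3.25 with the other 14 clusters weighted equally), 2.29 for ASPN (SE 0.153), 1.68 for VCAN (SE 0.0747) and 0.43 for DCN (SE 0.0502). FMOD and OGN were lower in the same cells, by edgeR log2 fold changes of -0.62 (SE 0.0651) and -0.54 (SE 0.0708). LUM did not pass the test (0.04, SE 0.0489, adjusted p = 0.585 by edgeR). Small leucine-rich genes were thus called in both directions within this cluster.

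In cluster 7, 2 of the 7 genes were called higher, where 18.3% of all genes tested were. VCAN had a log2 fold change of 2.38 (SE 0.101, adjusted p = 5.87e-05 by edgeR, and 3.11 with the other clusters weighted equally), with 2.26 in replicate 1 and 2.50 in replicate 2 alone. BGN had 1.93 (SE 0.224, adjusted p = 9.58e-04 by edgeR), with 1.40 and 2.32 in the replicates alone. The other 5 genes did not pass the test. In this shallow cluster the scaling sets the values: leaving out the TMM normalization moved the median of all genes by 0.65 on the log2 scale, and the share of higher calls among all calls from 40.9% to 74.6%. DCN, LUM and FMOD had log2 fold changes of -0.17, -0.10 and -0.07 with TMM and of 0.47, 0.54 and 0.57 without it, so their direction in cluster 7 depends on this choice. OGN, FMOD and ASPN passed the test only without TMM. Their values there were 1.06 (adjusted p = 0.00668 by edgeR), 0.57 (0.0310) and 1.38 (0.0299), against adjusted p of 0.142, 0.754 and 0.181 with TMM. The value of ASPN rests on 12 UMIs in cluster 7.

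The level of BGN in cluster 7 was a mean over unlike cells. When all cells were grouped anew with the 7 genes left out of the clustering, 972 of the 1298 cells of cluster 7 (74.9%) stayed together in 1 group of 1002 cells, 257 (19.8%) made up nearly all of another group of 259, and 69 went elsewhere. That smaller group had no match among the deposited clusters and held 1 cell of cluster 9. This division was made from other genes and was looked at after the data had been seen, so its values are a description with no test. In the 257 cells BGN stood at 7.65 and 11 UMIs per 10000 in replicates 1 and 2, and in the 972 cells at 0.139 and 0.161. The smaller group held 464 of the 492 BGN UMIs of cluster 7 (94.3%), and 69.3% of its cells had a BGN UMI against 2.16% of the others, at median depths of 1642 and 1317 UMIs.

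VCAN followed the same division less sharply. It stood at 10.3 and 11.1 in the 257 cells and at 1.86 and 1.84 in the 972 cells. Both groups were above cluster 9 (1.26 and 1.44) in these levels, which are not scaled by TMM. With TMM, the regrouped cluster 9 was tested against the group matched to cluster 7, which held the 972 cells. The log2 fold change of VCAN was 0.02 (adjusted p = 0.902 by edgeR). A higher VCAN in the larger group than in cluster 9 was thus not called by the test. The smaller group held 63.3% of the VCAN UMIs of cluster 7. DCN was higher in the smaller group than in the larger in each replicate (11 and 14.4 against 6.08 and 11.4). OGN was lower there in each replicate (2.48 and 3.78 against 3.50 and 5.21). The ranges over both replicates overlapped for both genes, and neither difference was tested. The difference between the replicates in DCN, LUM and OGN was present in both groups.

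Some marker genes divided with BGN, but not the whole list of fibroblast and FAP markers. The markers were not left out of the clustering, so their differences between the groups are not independent of it. PDGFRA, the surface receptor that defines FAP, stood at 4.58 and 5.75 in the 257 cells and at 0.354 and 0.414 in the 972 cells. MYOD1, a myogenic transcription factor, stood at 0.539 and 0.544 in the smaller group and at 3.19 and 2.68 in the larger, and DES, the muscle intermediate filament desmin, at 1.46 and 1.26 against 7.39 and 6.09. COL1A1 was high in both, at 159 and 132 against 151 and 154, where the other clusters reached at most 83.2. COL1A2 (197 and 181 against 275 and 288) and COL3A1 (106 and 106 against 201 and 206) were lower in the smaller group. FBN1 was higher there (38.3 and 33.1 against 25.2 and 22.7). LOX was lower there in each replicate, with ranges that overlapped (1.35 and 2.14 against 1.48 and 2.74). The group of cluster 7 that held nearly all its BGN was thus the one with the higher PDGFRA, while the larger group combined high collagen with myogenic transcripts. In the larger group the lower PDGFRA and the myogenic transcripts go against the FAP name, while the collagens do not. The cluster is therefore called by its number here. Doublets had not been removed, and 0.231% of the cells of cluster 7 were among the 8% of all cells with the highest doublet scores. In the other shallow clusters, 13, 14 and 15, the share was 0.166%, 6.95% and 3.15%, and in cluster 9 it was 14.7%. The part of depth in these scores was not tested.

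**Figure D2:**
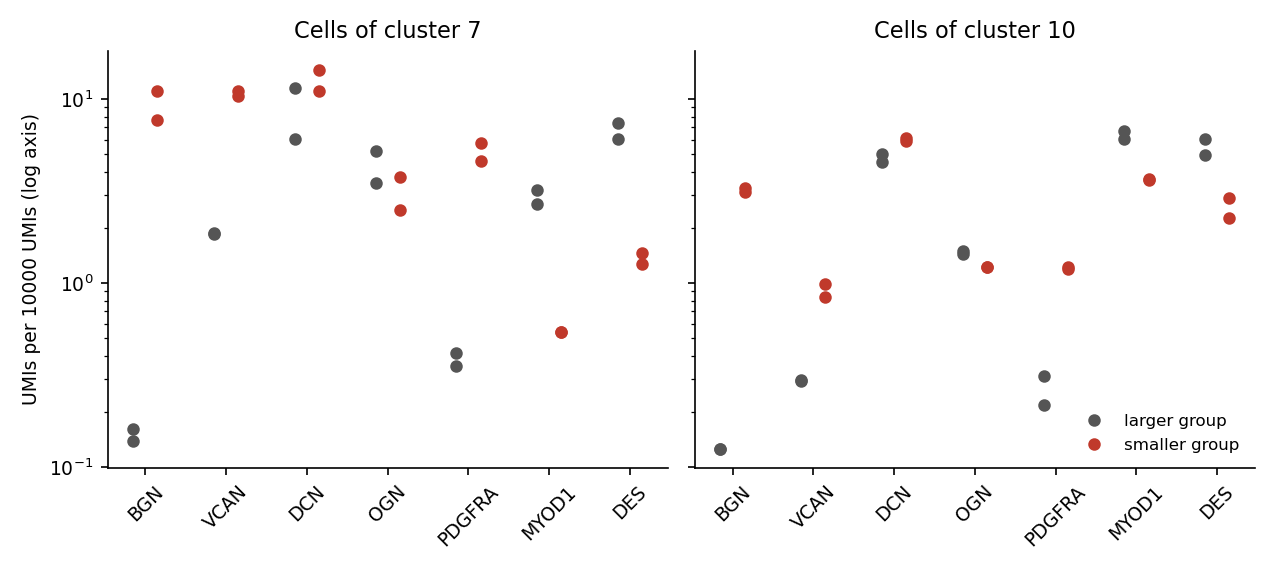
Levels (UMIs per 10000 UMIs, log axis) of 4 proteoglycan genes, PDGFRA, MYOD1 and DES in clusters 7 and 10, showing the 2 largest parts of each under a grouping made without the proteoglycan genes (257 and 972 cells of cluster 7, 185 and 747 of cluster 10). Each dot is a library. In cluster 7, BGN is at 7.65 and 11 in the smaller group and at 0.139 and 0.161 in the larger, and PDGFRA divides the same way while MYOD1 and DES go in the opposite direction.

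Cluster 10 was also divided in BGN, but its smaller part fell with cluster 9, as that of cluster 7 did not. The BGN level there was higher than in all other cells by 1.14 on the log2 scale (SE 0.0673, adjusted p = 5.15e-05 by edgeR), where 16.7% of all genes tested were higher. In the regrouping, 185 of its 1010 cells (18.3%) joined 1079 of the 1080 cells of cluster 9, and these 185 cells held 90.1% of the BGN UMIs of cluster 10. BGN stood at 3.29 and 3.13 in them, which is the level of cluster 9, and at 0.126 and 0.126 in the 747 cells of the larger group. VCAN was at 0.992 and 0.841 against 0.295 and 0.298, and PDGFRA at 1.22 and 1.19 against 0.311 and 0.217. MYOD1 was lower in the 185 cells (3.69 and 3.63) than in the 747 (6.69 and 6.07), but well above the level of 0.571 ± 0.151 (SD, n = 2) in cluster 9. The group matched to cluster 10 also took in 831 cells of other clusters, in which BGN was at 0.169 and 0.0892, and that matched to cluster 7 took in 30 cells with 0 BGN UMIs. In the group matched to each of the 2 clusters, BGN was lower than in all other cells, with edgeR log2 fold changes of -2.13 for cluster 7 and -1.68 for cluster 10, and cluster 9 was the only one of the 11 matched clusters with BGN higher. The group of 259 cells with most of the BGN of cluster 7 had no match and was not tested.

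Shares of cells with a UMI depend on depth, so each cell was thinned to 1000 UMIs, which left out 290 cells of cluster 7, 92 of cluster 13 and 294 of cluster 15. The 95% intervals are exact binomial ones and describe counting error alone. A BGN UMI was then found in 26.8% of the cells of cluster 9 (24.1% to 29.5%), in 13.2% of cluster 7 (11.2% to 15.4%) and in 7.43% of cluster 10 (5.89% to 9.22%). No cluster here is a type known to lack BGN. In clusters 1 to 6, 8, 11 and 12 the thinned shares ran from 0% to 1.42%, and shares in that range cannot be told apart from free RNA taken up with the cells. The lowest share among these in this draw of UMIs was that of cluster 12, with 0 of 627 cells (interval up to 0.587%). A draw of 500 UMIs per cell found a BGN UMI in 3 of the 627 cells (0.478%). The BGN level of cluster 12 (0.0715 and 0.0671) was not the lowest, so the 0 does not rank this cluster. Without thinning the shares were 93.2%, 15.6%, 19.8% and 8.29% at median depths of 23011, 1389, 5398.5 and 19113 UMIs, so the order of clusters 7 and 10 turned with depth.

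DCN was different. A DCN UMI was found in 74.5% of the thinned cells of cluster 8 (71.9% to 76.9%), in 57.6% of cluster 9 and in 49.5% of cluster 7, and in 20.7% of cluster 12 (17.6% to 24.1%). DCN was in 90.5% of all cells before thinning and no cluster is known to lack it, so the part of free RNA in the share of cluster 12 was not tested. Without thinning the shares were 99.8%, 99.7%, 56.9% and 91.1%. LUM was in 42.5% of the thinned cells of cluster 8 and in 6.86% of cluster 12. FMOD was in 8.46% of cluster 8 and 0.159% of cluster 12. OGN was in 29.8% of cluster 8 (27.3% to 32.4%), 16.3% of cluster 12 (13.5% to 19.4%) and 13.1% of cluster 9 (11.2% to 15.3%), so its share in cluster 12 was not below that in cluster 9. VCAN was in 26.0% of cluster 7 (23.3% to 28.8%), 13.3% of cluster 9, 6.61% of cluster 8 and 0.957% of cluster 12, against unthinned shares of 31.9%, 88.5%, 50.3% and 9.09%. ASPN was in at most 0.886% of the thinned cells in these 5 clusters, and its intervals overlapped.

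**Figure D3:**
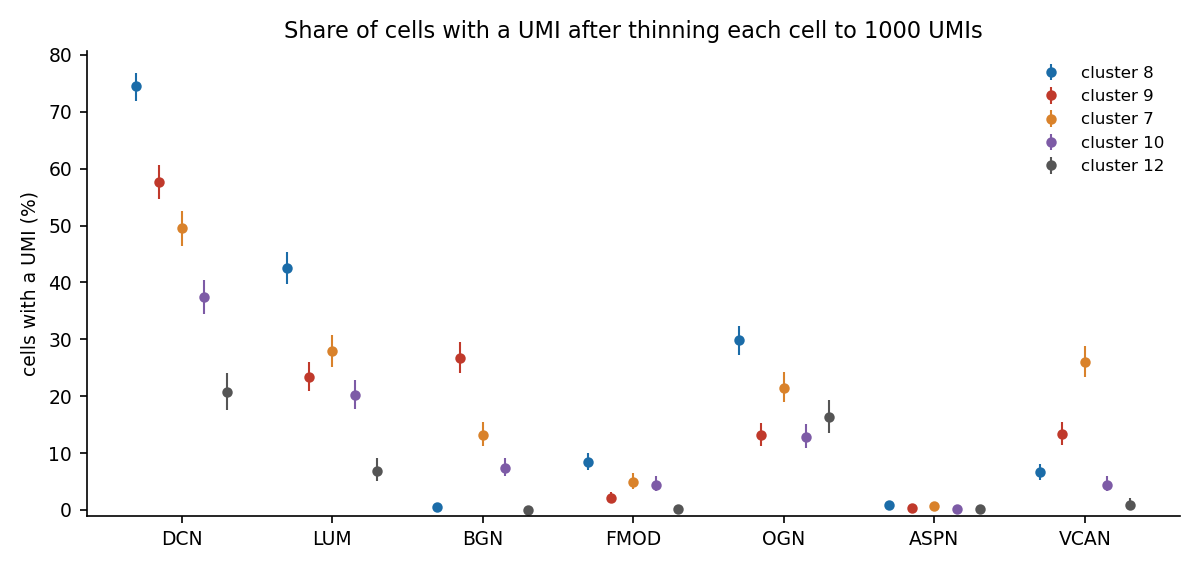
Share of cells (%) with a UMI of each gene after thinning every cell to 1000 UMIs, in clusters 8, 9, 7, 10 and 12. Dots are shares over both libraries and bars are exact binomial 95% intervals. BGN is in 26.8% of cluster 9 and, in this draw of UMIs, in 0% of cluster 12, while OGN stays at 16.3% in cluster 12.

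Genes detected in the same cells were counted in the thinned cells of clusters 7 and 9. In cluster 7, VCAN was found in 57.1% of the 133 cells with a BGN UMI and in 21.3% of the cells without. DCN was found with VCAN less unevenly, with VCAN in 28.5% of cells with DCN and in 23.6% of cells without, and OGN was in 20.3% of cells with BGN and in 21.7% of cells without. In cluster 9, VCAN was in 14.2% of the 289 cells with BGN and in 13% of the cells without. The share of VCAN thus rose with BGN in cluster 7, the cluster with unlike cells, and was much the same with and without BGN in cluster 9.

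Clusters 9 and 7, which carry the same name, were compared with each other as deposited, with both parts of cluster 7 in the sum. In levels not scaled by TMM, BGN in the 257 cells (7.65 and 11) was above that of cluster 9 (3.25 and 3.16). In the 972 cells it was below (0.139 and 0.161). The difference of the 257 cells from cluster 9 was not tested. BGN was called higher in cluster 9, where 29.9% of all genes tested were, and VCAN, OGN and FMOD were called lower (26.6% of all genes). The log2 fold changes were 1.00 for BGN (SE 0.212, adjusted p = 0.00542 by edgeR), -1.0 for VCAN (SE 0.118, adjusted p = 3.23e-04), -1.01 for OGN (SE 0.194, adjusted p = 0.00360) and -0.60 for FMOD (SE 0.188, adjusted p = 0.0299). DCN (0.45), LUM (0.03) and ASPN (1.01) did not pass the test. Without TMM the median of all genes moved by -0.51 and the share of higher calls from 53.0% to 29.3%, DCN turned to -0.05, LUM to -0.47, and BGN was at 0.50 with an adjusted p of 0.0549 by edgeR. The call of BGN was also lost without cells under 2000 UMIs (0.67, adjusted p = 0.242 by edgeR), and that of FMOD with DESeq2 (-0.62, adjusted p = 0.0620) and in the regrouped cells (-0.32, adjusted p = 0.209 by edgeR). In the regrouped cells, where the group matched to cluster 7 lacks the 257 cells, the log2 fold change of VCAN was 0.02 (adjusted p = 0.902 by edgeR).

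The collagens that these proteoglycans bind were all lower in cluster 9. Of the 8 fibrillar collagen genes, 7 were tested and 7 were lower, with a median log2 fold change of -2.71 against 0.05 over all genes tested. COL3A1 stood at 17.7 in cluster 9 and 176 in cluster 7 (-2.81, SE 0.0584) and COL11A1 at 0.196 and 3.37 (-3.59, SE 0.126). MET, a receptor that decorin binds, was at 0.0758 and 0.931 (-3.11, SE 0.153). Of 16 tested genes of hyalectans, link proteins and cell surface proteoglycans, 2 were higher and 11 lower, and of 10 tested genes of proteoglycan cleavage 1 was higher and 6 lower. Genes of glycosaminoglycan synthesis were even, with 5 higher and 5 lower of 24.

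The other comparisons follow steps between myogenic clusters. Their order is that of a trajectory the authors proposed from these same cells, which were collected at 1 time. A rise or fall is thus a difference between clusters and not a change followed in time. From the satellite cells of cluster 8 to the myoblasts of cluster 1, all 7 genes were lower, where 16.9% of all genes tested were lower and 17.2% higher. DCN fell by 1.14 on the log2 scale (SE 0.0486, adjusted p = 2.20e-06 by edgeR), LUM by 1.07, FMOD by 1.2, OGN by 0.97, VCAN by 1.48 and BGN by 0.96. ASPN had the largest change, from 0.0850 and 0.0638 to 0.00524 and 0.0132 (log2 fold change -2.97, SE 0.360), on 31 UMIs in cluster 1. The change of BGN was not seen in the regrouped cells (-0.02). The thinned share of cells with a BGN UMI was 0.483% in cluster 8 and 0.682% in cluster 1. Both lie in the range that cannot be told apart from free RNA. Over the same step, 6 of 7 tested fibrillar collagens were lower (median -0.65 against -0.00 over all genes), as was PRELP, the neighbour of FMOD (from 0.487 to 0.147, log2 fold change -1.69, SE 0.0918).

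From cluster 1 to the differentiating cells of cluster 3, 4 of the 7 genes were lower (background 19.1% lower and 21.1% higher). FMOD fell by 1.68 (SE 0.0789, adjusted p = 1.85e-05 by edgeR), VCAN by 1.05 (SE 0.0987), LUM by 1.03 (SE 0.0492) and DCN by 0.89 (SE 0.0438). OGN (-0.15, SE 0.0567, adjusted p = 0.0695 by edgeR), BGN (-0.06) and ASPN (0.18) did not pass the test. All 7 tested fibrillar collagens were lower (median -0.72 against 0.00). DSEL, an epimerase-like gene of dermatan sulfate synthesis, was at 0.663 in cluster 3 and 0.347 in cluster 1 (0.97, SE 0.0595).

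From cluster 3 to the myocytes of cluster 12, 4 genes were lower again (background 15.6%) and BGN was higher (background 18.2%). The log2 fold changes were -0.91 for FMOD (SE 0.180), -0.90 for VCAN (SE 0.214), -0.88 for LUM (SE 0.121) and -0.38 for DCN (SE 0.0637), with adjusted p of 0.00640, 0.0140, 0.00107 and 0.00285 by edgeR. Without TMM the share of higher calls over all genes moved from 53.8% to 38.0%, with no change in these calls. The higher BGN (0.66, SE 0.191, adjusted p = 0.0301) rests on 86 UMIs in cluster 12 and was lost with DESeq2 and with the highest doublet scores left out (0.20). OGN stood at 0.17 (SE 0.0679, adjusted p = 0.0869 by edgeR). Among genes that members bind, MSTN (myostatin) rose from 0.0495 to 0.152 (1.71, SE 0.177) and TGFB1 from 0.123 to 0.312 (1.42, SE 0.302), and 7 of the 11 tested genes of that list were higher and 2 lower (median 0.86 against -0.02 over all genes).

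Along clusters 8, 1, 3 and 12 the mean DCN level was 15, 6.64, 3.50 and 2.52, and that of OGN 4.20, 2.10, 1.85 and 1.94. The number of OGN UMIs for each DCN UMI was 0.283 and 0.278 in the replicates of cluster 8, 0.328 and 0.305 in cluster 1, 0.535 and 0.517 in cluster 3, and 0.770 and 0.774 in cluster 12. The replicates of these clusters did not overlap in this ratio. Compared with all other cells, 5 of the 7 genes were lower in cluster 12, where 29.5% of all genes tested were. VCAN had -2.97 (SE 0.141, and -3.62 with the other clusters weighted equally), FMOD -2.62 (SE 0.118) and BGN -2.39 (SE 0.0971, and -3.02). LUM had -2.01 (SE 0.119) and DCN -1.33 (SE 0.0656). OGN (0.17, SE 0.0653, adjusted p = 0.0740 by edgeR) and ASPN (-0.30, SE 0.339) did not pass the test. The BGN level of all other cells, 0.412, comes mostly from cluster 9. Among the 15 clusters, cluster 12 ranked 8 in its BGN level.

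**Figure D4:**
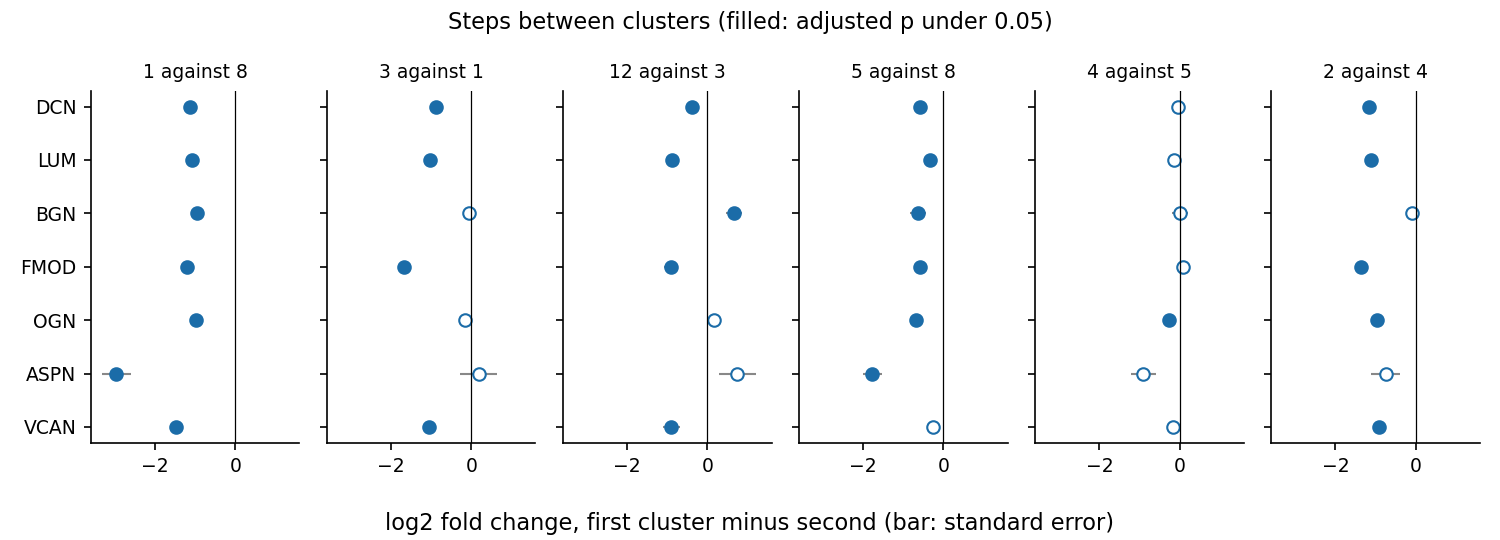
Log2 fold change (first cluster minus second, bars are standard errors derived from the edgeR F statistic) of the 7 genes in 6 steps between myogenic clusters. Filled dots passed an adjusted p of 0.05. All 7 genes are called lower in cluster 1 than in cluster 8, though BGN was at -0.02 in the regrouped cells. OGN is near 0 in the steps from cluster 1 to 3 (-0.15) and from 3 to 12 (0.17).

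The other series of steps runs through satellite cell clusters. From cluster 8 to cluster 5, 6 of the 7 genes were lower (background 12.2% lower and 16.3% higher), with log2 fold changes of -1.77 for ASPN (SE 0.246), -0.69 for OGN (SE 0.0629), -0.64 for BGN (SE 0.202, adjusted p = 0.0481 by edgeR, not called by DESeq2), -0.59 for DCN (SE 0.0480), -0.58 for FMOD (SE 0.0744) and -0.34 for LUM (SE 0.0456). VCAN did not pass the test (-0.27, adjusted p = 0.0546 by edgeR). The thinned BGN shares of clusters 8 (0.483%) and 5 (0.731%) lie in the range that cannot be told apart from free RNA. All 7 tested fibrillar collagens were lower too (median -0.72 against -0.01), COL1A1 from 83.3 to 47.2.

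From cluster 5 to cluster 4 the genes differed little. OGN alone was lower (-0.27, SE 0.0582, adjusted p = 0.0220 by edgeR), where 7.28% of all genes tested were lower and 9.16% higher, and the log2 fold changes of DCN (-0.04), LUM (-0.13), FMOD (0.08) and VCAN (-0.16) were small beside those of the other steps. With the library as a block, 4 of the 7 genes were called, and with no filter on low counts edgeR called 0, with 3 at an unadjusted p under 0.05, while DESeq2 called 1. The shares over all genes above belong to the main test. Those under these alternatives are not given here, so these counts have no background. ADAMTS5, a protease that cleaves versican, was at 0.0761 in cluster 4 and 0.116 in cluster 5 (-0.63, SE 0.118).

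Clusters 2 and 4 hold dividing cells that differ in MYOD1, which stood at 6.72 ± 0.425 in cluster 2 and 2.71 ± 0.00838 in cluster 4 (SD, n = 2). From 4 to 2, 5 of the 7 genes were lower (background 15.7% lower and 14.5% higher). FMOD fell by 1.37 (SE 0.0661, adjusted p = 3.64e-05 by edgeR), DCN by 1.16 (SE 0.0428), LUM by 1.11 (SE 0.0451), OGN by 0.97 (SE 0.0460) and VCAN by 0.91 (SE 0.0545). BGN (-0.09) and ASPN (-0.75) did not pass the test. COL1A1 fell from 48.4 to 18.9 (-1.37, SE 0.0328) and PRELP from 0.291 to 0.114 (-1.36, SE 0.0732), while TLR2, a receptor of biglycan, rose from 0.0386 to 0.101 (1.38, SE 0.129). Over the 15 clusters, MYOD1 had an r of -0.691 with DCN, -0.550 with LUM, -0.762 with ASPN, -0.541 with VCAN, -0.455 with OGN, -0.325 with BGN and -0.278 with FMOD, as a description of clusters that share their libraries.

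Among genes with at least 1000 UMIs, those whose log2 levels over the 15 clusters were most like each member were named by Pearson's r. For DCN they were LOX (0.963), which encodes the collagen cross-linking enzyme lysyl oxidase, P2RX4 (0.945) and PTN (0.944). For LUM they were CROT (0.970), SEC24D (0.958), a part of the coat that carries collagen out of the endoplasmic reticulum, and SERPINE2 (0.953). For BGN they were INHBA (0.993), which encodes the activin A subunit, the chemokine CXCL12 (0.971) and the matrix protein THBS2 (0.961). For VCAN they were CALU (0.972), LTBP2 (0.970) and VASN (0.969), of which LTBP2 belongs to the latent TGF-β binding proteins. FMOD was most like UAP1L1 (0.964), OGN most like MAGED1 (0.939) and ASPN most like EMC3 (0.893), the last on few UMIs.

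Several of these genes sit beside relatives, and the neighbours were read by name. DCN and LUM lie next to KERA and EPYC, which had 1 and 7 UMIs in all cells. OGN, OMD, ASPN and ECM2 lie in a row within the span of CENPP, a centromere gene, so UMIs of overlapping genes are uncertain, since the strand used in counting is not given in the sources used here. CENPP had its highest levels in clusters 2 (0.399 and 0.417) and 4 (0.380 and 0.412) and was at 0.0578 and 0.0724 in cluster 8, where OGN and ASPN were high. OMD, with 347 UMIs, was highest in cluster 8 (0.0532 and 0.0454), as was OGN. PRELP, beside FMOD, was at 0.454 and 0.520 in cluster 9 and at 0.490 and 0.483 in cluster 8. HAPLN1, the link protein gene beside VCAN, had 10 UMIs, while HAPLN3 stood at 0.243 in cluster 9 and 0.239 in cluster 7.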

How the data were processed

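Both libraries were aligned to ARS-UCD1.2 and merged by the authors with Cell Ranger 3.0.2, and the deposited values are whole UMI counts for every gene and cell. They also deposited an average per gene and cluster, with log2 fold changes and p-values that were not used. Barcode suffixes gave each cell its library. The averages convert to UMI sums and fixed the cluster of all 19096 cells (252240 sums matched, 0 differing). The members and gene lists were chosen with earlier results of these data known. Counts were summed per library and cluster and tested with edgeR 4.0.16 (TMM, filterByExpr, quasi-likelihood, Benjamini-Hochberg, adjusted p under 0.05). Each SE was derived as the absolute log2 fold change divided by the square root of the F statistic of that test. On simulated counts with 200 genes changed 3-fold, the test recovered 89.5% in cluster 9 and 68% in cluster 7. Library depth was 145631299 and 137818568 UMIs. Sums of the same library pair, with correlations of log2 library ratios from 0.167 to 0.669 between a cluster and the other cells. DESeq2 1.42.0 was an alternative. Doublets were kept. Genes named from lists were, in each comparison of clusters, the 3 with the largest change among those called, with the same sign in each library and a level of 0.1 UMI per 10000 or more. Other genes were named as neighbours, markers or relatives. Regrouping used Leiden clustering (scanpy 1.11.5, 20 components, resolution 1.39), with 11 of 15 clusters matched at a Jaccard index of 0.3 or more. Likeness was computed on log2(UMIs per 10000 + 0.01). Neighbours come from RefSeq's gene order in ARS-UCD2.0, another build, and no coordinates or sequences were used.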

Additional observations from a re-analysis of the deposited data

How the results depend on the processing

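The 103 called values of single genes gave 966 values under the alternatives, of which 5 reversed, 17 no longer passed the threshold and 50 kept their direction but moved by more than the spread between replicates. In the regrouping without the members, the log2 fold change of OGN in cluster 4 was -0.16, of BGN in cluster 7 -2.13, of BGN in cluster 10 -1.68 and of VCAN in cluster 9 against 7 0.02, and the number of clusters with BGN higher fell to 1 from 3. That count covers only the 11 matched clusters. The group of 259 cells with most of the BGN of cluster 7 had no match and was not tested. With the other clusters weighted equally, which gives a value with no test, 46 of the 71 values against all other cells moved (by a median of 0.17 on the log2 scale, 4 of them by over 1.5 times, and BGN in cluster 9 the most, to 3.25 from 4.85), and VCAN in cluster 5 was at -0.22 against 0.30. In cluster 4 against 5, 0 members were called with no filter on low counts and 4 with the replicate block, against 1, with no share over all genes given for these settings. The replicate block, with the library as the block, kept all 103 calls and moved no other count of called members by over 1.5 times. The causes were not tested. Values that did not pass the test were not recomputed singly, except in cluster 7 and in cluster 9 against 7 without TMM. Clusters 3, 5, 13 and 15 had no match in the regrouping and gave no values there.

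Shares of cells depend on depth by construction. Thinned to 500 UMIs and without thinning, they were 49.4% and 99.8% for DCN in cluster 8, 23.4% and 98.1% for LUM, 5.24% and 56.8% for FMOD and 16.3% and 88.6% for OGN there, 13.9% and 93.2% for BGN in cluster 9, and 14.6% and 31.9% for VCAN in cluster 7. ASPN in cluster 9 was at 10.7% without thinning. Leaving out a replicate leaves 1 sum on each side and a value with no test, and none of the called values changed sign there. With 1 animal and 2 libraries, differences between animals were not measured, and the depth of cluster 15 limits its values.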
